A study of Homo sapiens with 4 samples.

Results

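The 4 HOX clusters were described here in a CUT&Tag map of CHAF1A from RBE, an established human cell line derived from cancer of the bile ducts within the liver (intrahepatic cholangiocarcinoma). Members were the protein-coding genes of the RefSeq table of GRCh38.p14 whose symbols start with HOXA, HOXB, HOXC or HOXD, which gave 40 of 20037 protein-coding genes. The 40 are the 39 HOX genes and HOXA10-HOXA9, a readthrough gene that spans HOXA9 and HOXA10. Also included was every peak that overlapped a cluster between its outermost genes, extended by 1 kb on each side, which gave 32 of 97653 peaks in the si-CHAF1A list and 24 of 76313 in the si-Ctrl list.

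CHAF1A is the large subunit of CAF-1, a complex that deposits histones H3 and H4 on newly copied DNA. RBE cells were transfected with an siRNA against CHAF1A (group si-CHAF1A, 2 samples) or with a control siRNA (group si-Ctrl, 2 samples) and were collected 48 hours later. In CUT&Tag, an antibody guides a transposase to its target, so that sequenced fragments pile up around it. 1 peak list per group was analysed, and neither keeps the 2 samples of its group apart. The list named si was read as the CHAF1A siRNA list and the list named NC as the control list, since the sample titles match these names only in part. No difference between the lists therefore has a replicate check, and none was tested. No library without the CHAF1A antibody was used here, and CHAF1A protein or RNA was not analysed, so peaks mark places of piled-up fragments and the knockdown itself was not checked.

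HOX genes encode homeodomain transcription factors that give cells their position along the body axis. They lie in clusters whose genes all read in the same direction, with genes of paralogue groups 1 to 3 at the 3′ end, acting toward the head, and genes of groups 9 to 13 at the 5′ end, acting toward the tail and in the limbs. In many differentiated cells long stretches of these clusters are covered by Polycomb-marked chromatin, and Trithorax or MLL complexes keep the active stretches open. Histone marks and RNA were not measured in these lists.

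Few HOX genes carried a peak at an end. A peak overlapped the 1 kb on either side of a gene boundary for 10 of 40 HOX genes in the si-CHAF1A list (25.0%, 95% exact binomial interval 12.7 to 41.2) and for 9 of 40 in the si-Ctrl list (22.5%, 10.8 to 38.5). Over all protein-coding genes these shares were 64.3% in the si-CHAF1A list and 61.1% in the si-Ctrl list. The intervals cover counting error only, and neighbouring HOX genes can share a peak, so the genes are not independent. Of the 40 genes, 3 had an end peak in both lists (HOXA13, HOXB1 and HOXC10), 7 in the si-CHAF1A list only, 6 in the si-Ctrl list only and 24 in neither. Among all protein-coding genes, 8.07% had an end peak in the si-CHAF1A list only and 4.9% in the si-Ctrl list only.

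**Figure D1:**
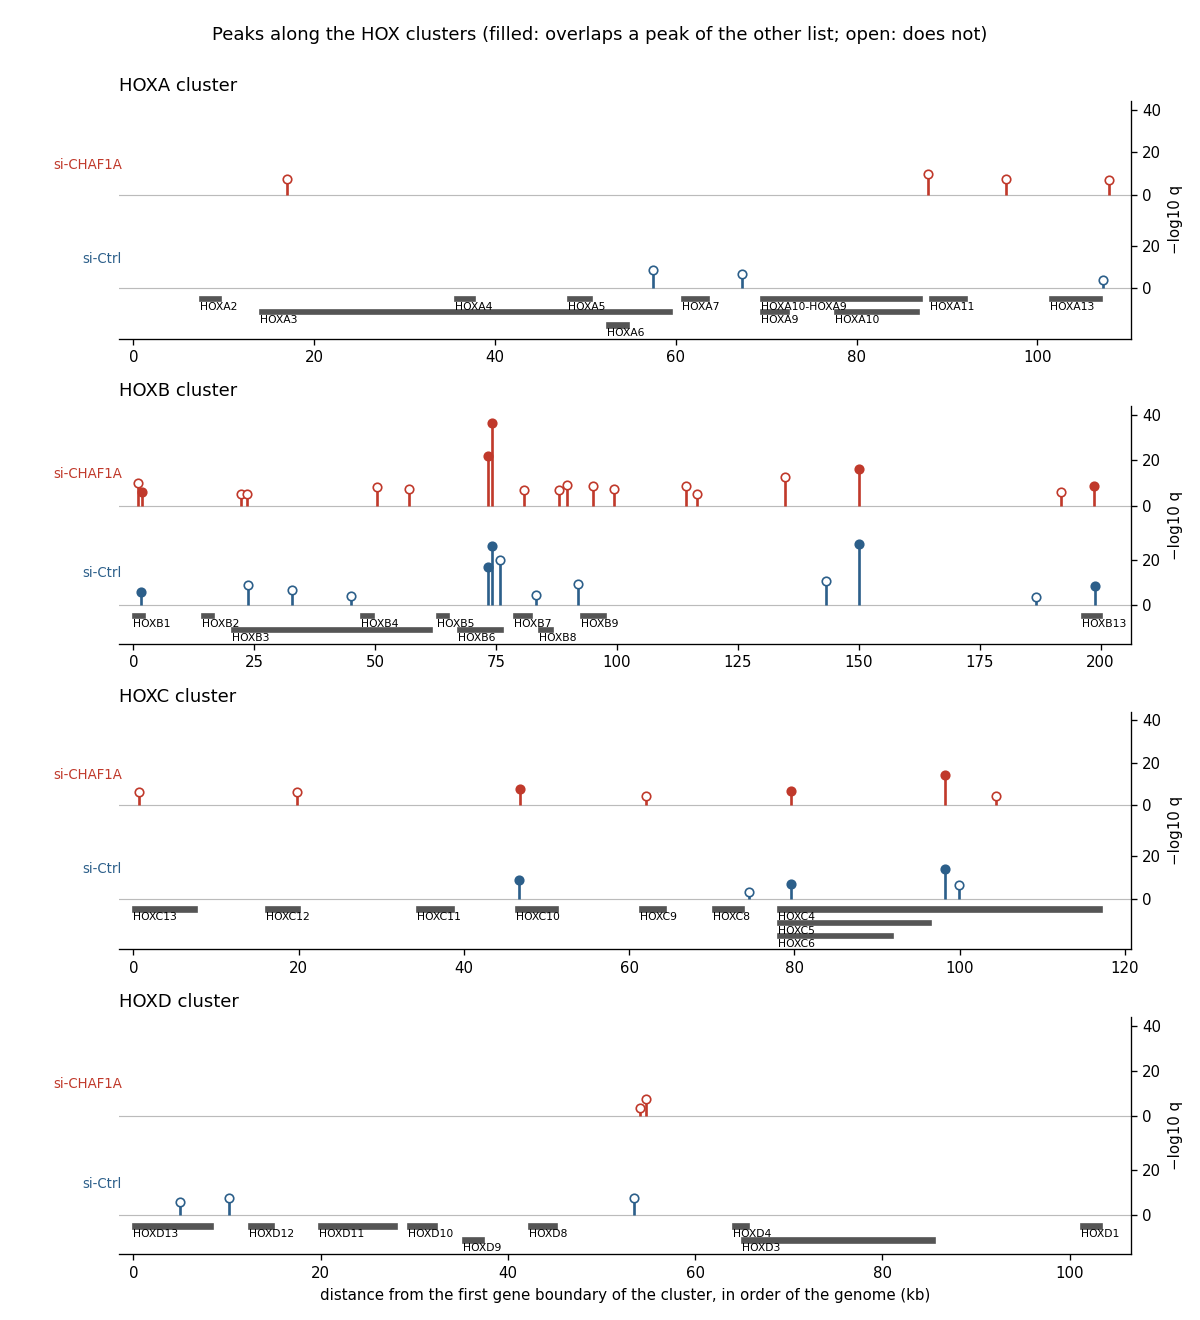
Peaks along each HOX cluster by distance from its first gene boundary in kb (x axis) and deposited −log10 q (right axis, 1 scale per list, the si-CHAF1A list above the si-Ctrl list), with bodies of the genes reported as grey bars. Filled points overlap a peak of the other list; in HOXA and HOXD every point is open, and the tallest points, up to 36.71 in the si-CHAF1A list, stand in HOXB.

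The counts were small in each cluster, and the exact intervals cover counting error only. They do not compare the lists, since the same genes were counted in both and neighbouring genes can share a peak. HOXA had end peaks at 4 of 12 genes in the si-CHAF1A list (interval 9.92 to 65.1%) and at 1 of 12 in the si-Ctrl list (0.211 to 38.5%). HOXB had 2 of 10 genes in the si-CHAF1A list (2.52 to 55.6%) and 6 of 10 in the si-Ctrl list (26.2 to 87.8%). HOXC had 4 of 9 genes in the si-CHAF1A list (13.7 to 78.8%) and 2 of 9 in the si-Ctrl list (2.81 to 60.0%). HOXD had 0 of 9 genes in each list, which with 9 genes still allows a share of up to 33.6% (upper bound of the exact interval). The 6 genes found in the si-Ctrl list only became 3 at a −log10 q of at least 5, with gene bodies in place of ends, or with 5′ ends only. For all protein-coding genes, the share in 1 list only was not counted at those settings. By paralogue group, the si-CHAF1A list had end peaks at 1 of 8 genes of groups 1 to 3, 1 of 15 of groups 4 to 8 and 8 of 17 of groups 9 to 13. In the si-Ctrl list the same counts were 1 of 8, 4 of 15 and 4 of 17. The 8 include HOXA10, HOXA10-HOXA9 and HOXA11, which share 1 peak. At groups 9 to 13 the exact interval was 23.0 to 72.2% in the si-CHAF1A list and 6.81 to 49.9% in the si-Ctrl list, with the same limits.

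**Figure D2:**
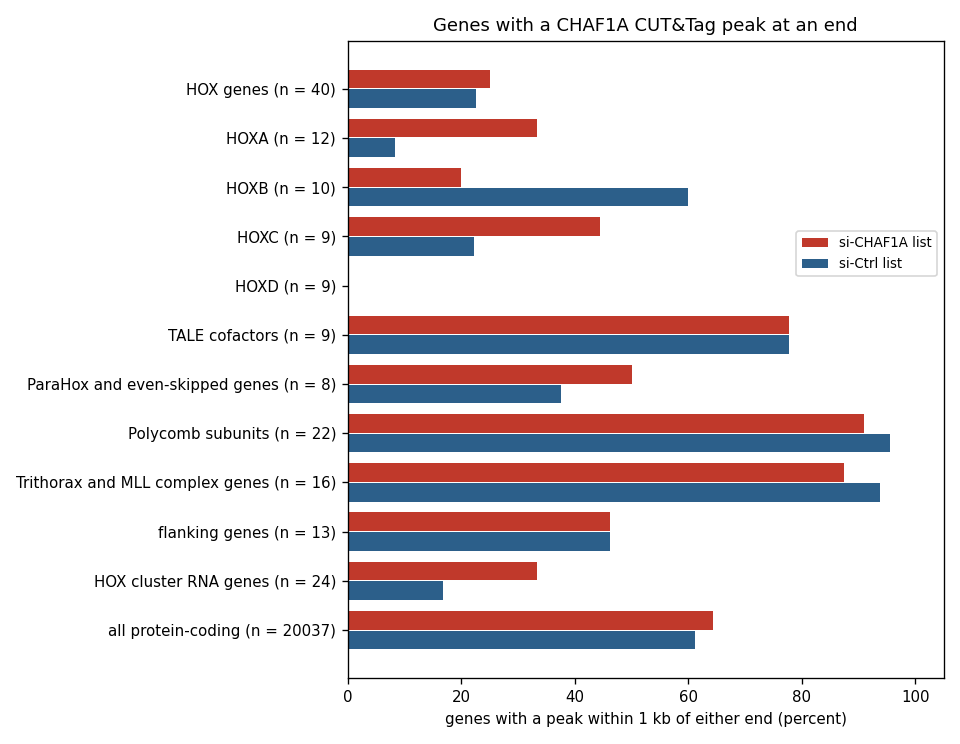
Percent of genes with a peak within 1 kb of either end (x axis) for all HOX genes, each cluster, related gene lists (flanking genes with PRAC1 and PRAC2, n = 13) and all protein-coding genes, with the si-CHAF1A list above the si-Ctrl list in each row. HOX genes stand at 25.0% and 22.5%, against 64.3% and 61.1% of all protein-coding genes, and HOXD has no bar.

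Among the HOX promoters that could be placed, few lay under a peak. The RefSeq promoter table (GRCh38.p14, 250 bases before to 50 after a start site) held 21 of the 40 members, in 20 distinct windows, since HOXC4 and HOXC5 have the same one. It held 10 HOXA and 8 HOXD genes but only 1 of 10 HOXB and 2 of 9 HOXC genes, so the promoters of HOXB and HOXC, where most peaks lay, are nearly absent from these counts. A peak touched 0 of these 21 windows in the si-CHAF1A list and 2 of 21 in the si-Ctrl list (9.52%). Over the 15843 protein-coding genes in the table, the shares were 52.1% in the si-CHAF1A list and 51.3% in the si-Ctrl list. The median count of CG dinucleotides was 22 per window for these 21 HOX windows and 22 over all genes in the table. The part of CG content in these shares was not tested. Among the 7 HOX windows with 23 to 31 CG, a peak touched 0 in the si-CHAF1A list and 1 in the si-Ctrl list. Of all 4048 windows in that class (23 to 32 CG), a peak touched 74.1% in the si-CHAF1A list and 74.3% in the si-Ctrl list. The 10 HOX windows with 11 to 22 CG had 0 in each list, against 56.3% and 54.8% of all windows of their class (9 to 22 CG) in the si-CHAF1A and si-Ctrl lists.

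**Figure D3:**
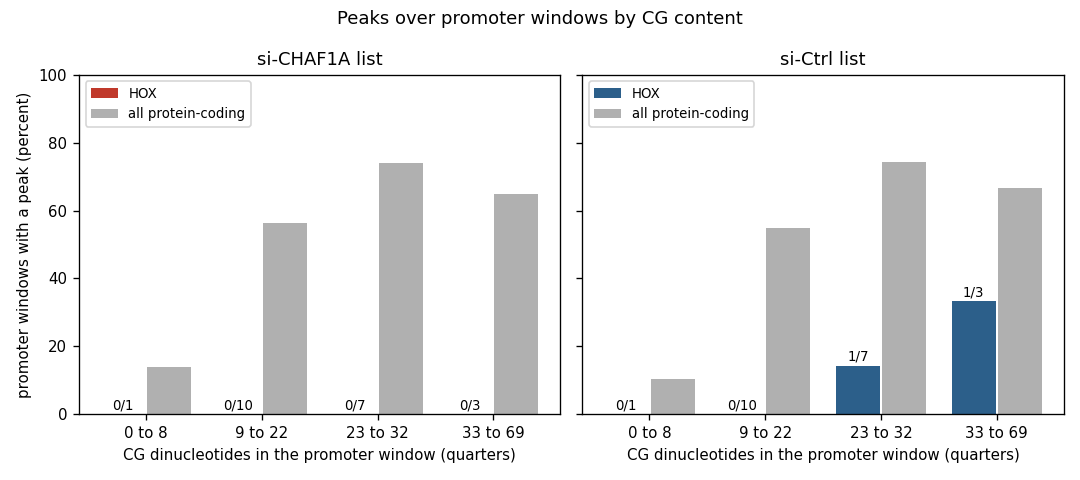
Percent of promoter windows touched by a peak (y axis) in 4 classes of CG dinucleotide count (x axis), for HOX genes (colour, with counts above) and all protein-coding genes (grey), in the si-CHAF1A list (left) and the si-Ctrl list (right). HOX bars reach 1 of 7 and 1 of 3 in the si-Ctrl list and stand at 0 in every class of the si-CHAF1A list.

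The 2 HOX promoters with a peak, both in the si-Ctrl list, are shown with the bases under that peak in capitals, followed by the most CG-rich HOX promoter without one, each 5′ to 3′ on the strand of its gene. HOXA13 and HOXD13, which pattern the distal limb, lie at the 5′ ends of their clusters, and HOXD1 lies at the 3′ end of HOXD. The windows are chr7:27200042-27200341 (minus strand), chr2:176092471-176092770 (plus strand) and chr2:176188418-176188717 (plus strand).
HOXA13: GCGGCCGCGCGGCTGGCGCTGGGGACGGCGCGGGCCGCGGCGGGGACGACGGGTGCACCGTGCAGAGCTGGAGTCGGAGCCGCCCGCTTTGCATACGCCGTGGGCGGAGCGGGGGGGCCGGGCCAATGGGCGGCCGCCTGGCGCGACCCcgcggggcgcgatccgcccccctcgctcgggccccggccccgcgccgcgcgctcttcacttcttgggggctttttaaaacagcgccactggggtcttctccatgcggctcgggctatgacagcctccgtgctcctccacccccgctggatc
HOXD13: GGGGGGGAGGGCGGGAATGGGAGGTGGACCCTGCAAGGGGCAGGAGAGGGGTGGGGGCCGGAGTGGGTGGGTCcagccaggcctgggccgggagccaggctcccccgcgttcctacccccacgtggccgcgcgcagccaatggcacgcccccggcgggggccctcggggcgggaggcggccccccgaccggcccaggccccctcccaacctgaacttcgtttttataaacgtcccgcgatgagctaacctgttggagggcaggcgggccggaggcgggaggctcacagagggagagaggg
HOXD1: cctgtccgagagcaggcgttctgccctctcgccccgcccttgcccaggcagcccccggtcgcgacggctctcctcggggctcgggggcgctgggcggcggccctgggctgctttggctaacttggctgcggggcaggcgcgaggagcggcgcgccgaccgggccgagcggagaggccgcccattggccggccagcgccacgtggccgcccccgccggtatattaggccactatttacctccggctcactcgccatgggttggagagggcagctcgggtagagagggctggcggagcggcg
The HOXA13 window held 44 CG, of which 26 lay in the 149 bases under the peak. In the HOXD13 window, with 24 CG, 2 lay in the 73 bases under the peak. The HOXD1 window held 36 CG, and neither list had a peak at either end of that gene.

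HOXA had 4 peaks in the si-CHAF1A list and 3 in the si-Ctrl list, and no peak of one overlapped a peak of the other. Positions here are on hg38 (GRCh38), counted from 1. In the si-CHAF1A list, a single peak (chromosome 7, 27180759 to 27180968, fold enrichment 3.39, −log10 q 9.69) lay between HOXA10 and HOXA11, genes of uterine and limb development. It accounted for the end peaks of HOXA10, HOXA10-HOXA9 and HOXA11, and the nearest si-Ctrl peak was 19225 bases away. Fold enrichment is the authors' ratio of piled-up fragments over local background where a peak is highest (its summit), and q is their p of the peak, adjusted within its own list. HOXA13 had a peak in each list upstream of its start, but at different positions. The si-CHAF1A peak (27200888 to 27201091) had a fold enrichment of 3.24 with its summit 807 bases upstream, and the si-Ctrl peak (27200193 to 27200469) had 2.98 with its summit 110 bases upstream. They were 419 bases apart, and both lay at HOTTIP, a long noncoding RNA gene that is read away from HOXA13. The remaining si-CHAF1A peaks were inside HOXA3 and beside HOXA11-AS, and the remaining si-Ctrl peaks were inside HOXA3 and upstream of HOXA7. HOXA2 to HOXA7 and HOXA9 had no end peak in either list. The longest stretch without a peak was 70.5 kb in the si-CHAF1A list (27110298 to 27180758), and 58.4 kb in the si-Ctrl list, ending at 27150403.

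HOXB was the cluster with the most peaks, 19 in the si-CHAF1A list and 13 in the si-Ctrl list. It was also the longest, at 202.2 kb. At the rate of its own chromosome it would hold 14.4 peaks in the si-CHAF1A list and 11.1 in the si-Ctrl list. The observed counts were 1.32 times that number in the si-CHAF1A list (exact Poisson interval 0.793 to 2.06) and 1.17 times in the si-Ctrl list (0.625 to 2.01). Both were within counting error of that rate. The same ratios for HOXC were 1.5 and 1.4. The strongest si-CHAF1A peak of HOXB lay inside HOXB6 and HOXB-AS3, a noncoding gene read in the opposite direction. In the si-Ctrl list the same site was the second strongest among the HOX cluster peaks by −log10 q. There the si-CHAF1A peak at chromosome 17, 48602355 to 48603080, reached a fold of 4.70 (−log10 q 36.71), and the si-Ctrl peak at 48602659 to 48602963 reached 4.84 (25.81). A neighbouring site was also in both lists, at 48601564 to 48602021 in the si-CHAF1A list (fold enrichment 3.70) and 48601643 to 48601972 in the si-Ctrl list (3.96). At both sites the summits of the lists fell on the same base. The pileup at the stronger summit was 111 over a background of 22.83 in the si-CHAF1A list, and 75 over 14.7 in the si-Ctrl list. A peak nearer the HOXB6 start (48604094 to 48604417, fold enrichment 4.30, −log10 q 19.6, pileup 65) was in the si-Ctrl list only. It was the strongest HOX peak without a partner in the other list, and the nearest si-CHAF1A peak ended 1014 bases away. HOXB6 thus counted as a gene with a si-Ctrl end peak only, although both lists had peaks in its body.

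HOXB1, which acts in hindbrain segments, had end peaks in both lists. The si-CHAF1A peak at 48530060 to 48530749 had a fold of 2.61 (−log10 q 5.99), and the si-Ctrl peak at 48530139 to 48530443 had 2.97 (5.68). A second si-CHAF1A peak at HOXB1 (48529411 to 48529652, −log10 q 10.16) had no partner. HOXB4, a regulator of blood stem cells, had an end peak in the si-CHAF1A list only (48578733 to 48579110, fold enrichment 3.06, −log10 q 8.03), with its summit 476 bases upstream of the gene. In the si-Ctrl list only, HOXB7 and HOXB8 shared a peak (48611704 to 48611872, fold enrichment 2.72, −log10 q 4.22) and HOXB9 had one past its 3′ end (48620496 to 48620669, 3.53, 9.37). Near these genes the si-CHAF1A list had peaks inside HOXB7 and HOXB9 and upstream of HOXB8 that lay outside the 1 kb windows. HOXB13, a prostate and hindgut gene, had a si-CHAF1A peak of fold enrichment 2.77 (48727116 to 48727309) inside the larger si-Ctrl peak of 3.28 (48727041 to 48727774). It counted as a si-Ctrl gene only because the narrower peak stopped short of the window, and it was the only such gene among the 13 with an end peak in 1 list. HOXB2, HOXB3 and HOXB5 had no end peak in either list. In the 98.4 kb between HOXB9 and HOXB13, 6 si-CHAF1A and 3 si-Ctrl peaks were found, 1 of them shared. That shared site, in the noncoding gene LINC02086 (48678181 to 48678860 in the si-CHAF1A list and 48678186 to 48678698 in the si-Ctrl list), had a fold enrichment of 3.86 in the si-CHAF1A list and 6.14 in the si-Ctrl list. Its pileup was 61 in each list, over a background of 15.06 in the si-CHAF1A list and 9.09 in the si-Ctrl list. LINC02086 also held the strongest unshared peak between genes of each list, at 48663062 to 48663518 in the si-CHAF1A list (fold 3.80, −log10 q 12.7) and at 48671729 to 48672053 in the si-Ctrl list (4.06, 10.33).

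In HOXC the si-CHAF1A list had 7 peaks and the si-Ctrl list 5, all but 1 of them inside a HOX gene. HOXC10, a gene of lumbar motor neurons and the hindlimb, had an end peak in both lists. The si-CHAF1A peak at chromosome 12, 53985603 to 53985803, had a fold enrichment of 2.93 and the si-Ctrl peak at 53985410 to 53985726 had 3.64. HOXC13 (53939455 to 53939907), which is needed for hair and nails, HOXC12 (53958268 to 53958631) and HOXC9 (54000864 to 54001050) had a si-CHAF1A end peak only, with fold enrichments of 2.95, 2.70 and 2.38 and −log10 q of 6.17, 6.27 and 4.46. HOXC8 had a si-Ctrl end peak only (54013307 to 54013476), at fold 2.47 and −log10 q 3.06, near the lowest of that list. HOXC11, HOXC4, HOXC5 and HOXC6 had no end peak. HOXC4, HOXC5 and HOXC6 share a first boundary in the annotation, and inside all 3 genes, about 1.5 kb past it, both lists had a peak with summits 1 base apart (fold enrichment 2.78 in the si-CHAF1A list and 3.19 in the si-Ctrl list). A stronger shared site lay further inside HOXC4. It spanned 54036872 to 54037119 in the si-CHAF1A list (fold enrichment 3.51, −log10 q 14.05) and 54036866 to 54037080 in the si-Ctrl list (4.15, 13.97), again with summits 1 base apart.

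HOXD had 2 peaks in the si-CHAF1A list and 3 in the si-Ctrl list, none shared and none within 1 kb of a HOXD gene boundary. The si-CHAF1A peaks (chromosome 2, 176141563 to 176141745 and 176142253 to 176142470) and the third si-Ctrl peak (176140743 to 176140984) lay within 2 kb of each other, between HOXD8 and HOXD4. The nearest of them were 579 bases apart. The first si-Ctrl peak (176092187 to 176092543, fold enrichment 3.51, −log10 q 5.95) is the one over the HOXD13 promoter shown above, with its summit 234 bases upstream of the start site. Since the annotated gene begins 5000 bases before that summit, this peak did not count as an end peak. From 176140985 to the end of the cluster, 50.9 kb with HOXD4, HOXD3 and HOXD1, the si-Ctrl list had no peak. In the si-CHAF1A list the longest such stretch, 55.1 kb, covered HOXD13 to HOXD8.

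Counted along the DNA with every peak of the lists, the number of peaks in the 4 clusters together was within counting error of the rate of their chromosomes. At the rate of their own chromosomes, from the first to the last annotated gene, their 535.9 kb would hold 25.8 peaks in the si-CHAF1A list and 19.9 in the si-Ctrl list. The observed 32 and 24 were 1.24 times that number in the si-CHAF1A list (95% exact Poisson interval 0.847 to 1.75, counting error only) and 1.21 times in the si-Ctrl list (0.773 to 1.80). At a −log10 q of at least 10 the ratios were lower, 0.579 in the si-CHAF1A list and 0.636 in the si-Ctrl list. They rest on 6 peaks in each list and are given without an interval. HOXD alone had a ratio of 0.688 in the si-CHAF1A list, with 2 peaks, and 1.33 in the si-Ctrl list, with 3. By bases covered the ratios were 0.834 in the si-CHAF1A list and 0.809 in the si-Ctrl list. The median width of HOX peaks was 236 bp in the si-CHAF1A list and 266.5 bp in the si-Ctrl list, against 340 and 327 bp over all peaks of those lists. Of the 32 si-CHAF1A peaks, 9 lay at a HOX gene end (28.1%), while 15.1% of all peaks of that list lay at the end of a protein-coding gene. Of the 24 si-Ctrl peaks, 8 did (33.3%), against 17.5% of all. A cluster is dense in genes, and how far that bears on these shares was not tested.

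HOX peaks were on the weak side of both lists. The median −log10 q was 7.33 for the 32 si-CHAF1A peaks, against 8.5 over all peaks of that list. It was 7.51 for the 24 si-Ctrl peaks, against 9.82 over all. The HOX peaks at gene ends had medians of 7.03 in the si-CHAF1A list and 7.04 in the si-Ctrl list, whereas peaks at the ends of all protein-coding genes had 16.0 and 20.1. A −log10 q of at least 10 was reached by 6 HOX peaks in each list, 5 in HOXB and 1 in HOXC. HOXA and HOXD thus had none at that strength.

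**Figure D4:**
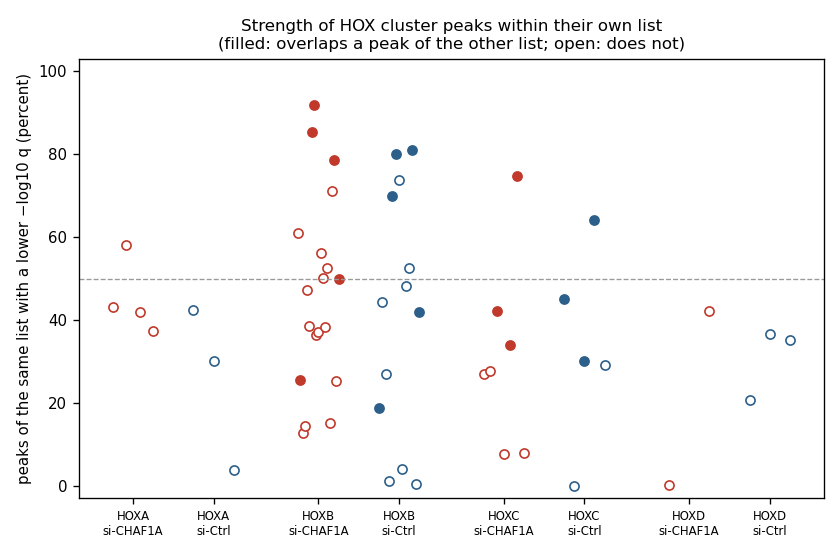
Each HOX cluster peak by the percent of peaks of its own list with a lower −log10 q (y axis), per cluster and list, with the si-CHAF1A list left of the si-Ctrl list; the dashed line is the middle of the list. Filled points overlap a peak of the other list. The highest points, at 91.9 in the si-CHAF1A list and 81.0 in the si-Ctrl list, are in HOXB and filled.

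Few HOX peaks were found at the same place in both lists. Of the 32 si-CHAF1A peaks, 8 were overlapped by a si-Ctrl peak (25.0%, 95% exact binomial interval 11.5 to 43.4), against 47.5% of all si-CHAF1A peaks. Of the 24 si-Ctrl peaks, 8 were overlapped by a si-CHAF1A peak (33.3%, 15.6 to 55.3), against 61.9% of all si-Ctrl peaks. All 8 pairs lay in HOXB (5) or HOXC (3). The share of all peaks found in both lists grew with strength, over 4 equal classes of −log10 q, so the HOX shares can be read beside peaks of like strength. In the lowest class, 0 of 6 HOX peaks of the si-CHAF1A list were shared, against 16.9% of all its peaks there, and 1 of 7 of the si-Ctrl list, against 34.5%. In the second class, 4 of 16 HOX peaks of the si-CHAF1A list were shared, against 29.4% of all its peaks there. In the second class of the si-Ctrl list, 3 of 11 were shared, against 51.2%. In the third class, 1 of 7 HOX peaks of the si-CHAF1A list was shared, against 52.3% of all, and 2 of 4 of the si-Ctrl list, against 70.4%. Below the top class the HOX shares were under those of all peaks, but these classes hold only 4 to 16 HOX peaks each. Some shares were close, as with 4 of 16 against 29.4%. The same 8 pairs enter the counts of both lists, and these differences were not tested. All 3 HOX peaks in the top class of the si-CHAF1A list and both in the top class of the si-Ctrl list were shared, against 91.5% and 91.4% of all. In 4 of the 8 pairs the summits were at most 1 base apart, and the largest distance was 172 bases; of all overlapping pairs of the lists, 17.4% had summits at most 1 base apart.

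Fold enrichment at the 8 shared sites was lower in the si-CHAF1A list than in the si-Ctrl list at every site, while the pileup was higher at 7 sites and equal at 1. It ranged from 2.61 to 4.70 in the si-CHAF1A list and from 2.97 to 6.14 in the si-Ctrl list. The background was higher in the si-CHAF1A list at all 8 sites, where it ranged from 13.99 to 23.31, against 9.09 to 14.93 in the si-Ctrl list. Among all peaks whose background could be solved, the commonest value was 8.49 in the si-CHAF1A list (23255 of 96856 peaks). In the si-Ctrl list it was 6.34 (13779 of 75654 peaks), and the ratio of these values was 1.34. Over all peaks, the median fold enrichment was also lower in the si-CHAF1A list (3.19) than in the si-Ctrl list (3.72). How many of all overlapping pairs had a lower fold enrichment in the si-CHAF1A list was not counted. The part of background and depth in these folds was not tested.

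Of a chosen list of 24 noncoding genes of the clusters, 8 had an end peak in the si-CHAF1A list and 4 in the si-Ctrl list, 3 of them in both: HOTTIP, HOXB-AS1 and HOXC-AS3. HOXA11-AS, HOXB-AS4, HOXC-AS1, HOXC13-AS and MIR10A had one in the si-CHAF1A list only and HOXB-AS2 in the si-Ctrl list only. Over all 20216 lncRNA and microRNA genes, 30.1% had an end peak in the si-CHAF1A list and 27.2% in the si-Ctrl list, 7.6% in the si-CHAF1A list only and 4.63% in the si-Ctrl list only. The list leaves out some noncoding genes of the clusters: of all 32 lncRNA and microRNA genes that overlap them, 10 had an end peak in the si-CHAF1A list and 5 in the si-Ctrl list. HOTAIR, a noncoding RNA of the HOXC cluster known for its link to Polycomb, had none. Of the 8 microRNA genes in the clusters, MIR10A alone lay within 1 kb of a peak, the si-CHAF1A peak upstream of HOXB4, which was 728 bases from its hairpin (chromosome 17, 48579838 to 48579947). The nearest si-Ctrl peak was 6355 bases away. Its mature RNAs are shown with those of the miR-196 genes and of MIR615, which had no peak within 1 kb, with the seed (bases 2 to 8) in capitals. The sequences are from RefSeq.
hsa-miR-10a-5p: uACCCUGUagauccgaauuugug
hsa-miR-10a-3p: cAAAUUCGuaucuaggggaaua
hsa-miR-196a-5p: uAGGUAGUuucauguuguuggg
hsa-miR-196b-5p: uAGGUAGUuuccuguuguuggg
hsa-miR-615-3p: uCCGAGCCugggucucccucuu
The 5p arms from MIR196A1 in HOXB, MIR196A2 in HOXC and MIR196B in HOXA share the seed AGGUAGU, and known targets of these microRNAs include HOX mRNAs.

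Genes of chromatin complexes that act on the HOX clusters mostly had end peaks, as did many genes overall (64.3% of protein-coding genes in the si-CHAF1A list and 61.1% in the si-Ctrl list). Of 22 Polycomb subunit genes, 20 had one in the si-CHAF1A list and 21 in the si-Ctrl list. RBBP4, a histone-binding subunit of both Polycomb and CAF-1 complexes, had a fold enrichment of 8.25 in the si-CHAF1A list and 9.20 in the si-Ctrl list. SUZ12 had 7.95 in the si-CHAF1A list and 9.33 in the si-Ctrl list, CBX7 had a si-Ctrl peak only (4.66), and RING1 had none. Trithorax and MLL complex genes had 14 of 16 in the si-CHAF1A list and 15 of 16 in the si-Ctrl list. ASH2L was the strongest, with 17.86 in the si-CHAF1A list and 20.28 in the si-Ctrl list. WDR5 had a si-CHAF1A peak only (2.05), and PSIP1 and MLLT3 had si-Ctrl peaks only (4.09 and 4.22). The HOX cofactors of the TALE class had 7 of 9 in each list (77.8%), near the share of all protein-coding genes, and MEIS3 and PKNOX2 had none. PKNOX1 led with 9.35 in the si-CHAF1A list and 11.09 in the si-Ctrl list.

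Homeobox genes outside the clusters and the neighbours of the clusters had end peaks less often than the chromatin complex genes. Both sets are small, and the shares over all protein-coding genes were 64.3% in the si-CHAF1A list and 61.1% in the si-Ctrl list. Of 8 ParaHox and even-skipped genes, 4 had an end peak in the si-CHAF1A list and 3 in the si-Ctrl list. GSX1, PDX1 and CDX2, which sit together on chromosome 13, had one in both, CDX4 in the si-CHAF1A list only, and EVX1 and EVX2, at the 5′ flanks of HOXA and HOXD, in neither. Of 11 genes flanking the clusters, EVX1 and EVX2 among them, 6 had an end peak in each list. PRAC1 and PRAC2, which lie inside HOXB between HOXB9 and HOXB13, had none. With PRAC1 and PRAC2 counted, the share was 46.2% of 13 genes in each list. SKAP2 beside HOXA had fold enrichments of 8.74 in the si-CHAF1A list and 8.54 in the si-Ctrl list, and CALCOCO1 beside HOXC had 6.64 in the si-CHAF1A list and 8.40 in the si-Ctrl list. LNPK beside HOXD had 5.05 in the si-CHAF1A list and 4.77 in the si-Ctrl list. TTLL6 had a si-CHAF1A peak only (3.39) and SMUG1 a si-Ctrl peak only (3.74). Among genes of biliary identity, KRT19, EPCAM and SOX9 had an end peak in both lists and KRT7 in the si-Ctrl list only. ALB, APOA1, TTR, PTPRC and PECAM1, markers of hepatocytes, blood and endothelium, had none, while the fibroblast gene COL1A1 had one in both. Peaks do not measure RNA, so this is no check of the cell type.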

How the data were processed

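The labels name 4 CUT&Tag samples of RBE cells, 2 per siRNA group. 2 peak lists were used, 1 per group, each mapped to its group by its name. The submitters' processing notes name MACS2 2.1.2, deepTools 3.4.3, Bowtie2 2.2.5 and fastp 0.20.1 with build hg38. The labels do not say whether both samples went into a list. The authors' fold enrichment is a linear ratio, p and q are −log10 values as deposited, and the deposited score is 10 times −log10 p cut to a whole number and was not used. The lowest deposited −log10 p was 5.00 in each list.

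Peaks outside chromosomes 1 to 22, X and Y were left out (886 in the si-CHAF1A list and 868 in the si-Ctrl list). A peak counted where any base overlapped the 1 kb on each side of a gene boundary, and 1 bp of overlap made a peak shared. Strand was taken from the 21 members in the RefSeq promoter table, where all members of a cluster had 1 strand. Pileup and background were solved from fold and p, as (pileup + 1)/(background + 1) and a Poisson tail, for peaks with −log10 p under 290, and 99.982% of si-CHAF1A and 99.992% of si-Ctrl peaks gave a whole pileup that returned −log10 p within 0.001. Read totals are unknown. The steps were tested on simulated data.

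Members and lists were chosen with earlier results of these data known. All HOX genes enter the counts, and the values of some genes are not reported here. Values are given for the 6 with the highest −log10 q per list, all genes in 1 list only, the strongest peaks between genes and up to 3 genes per related list. A few others were named after their values had been seen. Alternatives were −log10 q of at least 5 or 10, equal numbers of peaks, a 3 kb window, gene bodies, 5′ ends only, summits, 50% reciprocal overlap, summits within 250 bp and covered bases. Scripts ran on Python 3.11.15 with scipy 1.17.1, pandas 2.3.3, numpy 2.4.6, and matplotlib 3.10.9 for plots.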

Additional observations from a re-analysis of the deposited data

How the results depend on the processing

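The low share of HOX genes with an end peak stayed below that of all protein-coding genes in each setting tried, though the counts moved. With −log10 q of at least 10, 1 HOX gene was left in each list (HOXB1 in the si-CHAF1A list, HOXB6 in the si-Ctrl list), each in that list only, against 51.2% and 50.7% of all genes. With at least 5, the si-CHAF1A list kept 9 genes and the si-Ctrl list 5, of which 3 were in the si-Ctrl list only. The 3 kb window gave 20 of 40 in the si-CHAF1A list and 19 in the si-Ctrl list, against 75.2% and 71.6% of all genes, and gene bodies gave 19 and 15, against 81.1% and 77.7%. Equal numbers of peaks per list gave 9 HOX genes in each list, against 61.2% and 61.1% of all genes. The cluster peaks were then 26 in the si-CHAF1A list and 24 in the si-Ctrl list. The chosen noncoding genes with an end peak were 6 and 4, and the share over all noncoding genes was not counted at that setting. Genes in the si-Ctrl list only numbered 3 with gene bodies and 3 with 5′ ends only. The share of all protein-coding genes with a peak in 1 list only was counted at the main setting alone. At −log10 q of at least 10, 6 cluster peaks per list were left, 66.7% of them shared in each. The shared share of all peaks at that threshold was not counted. Since sharing grew with strength over all peaks, the 66.7% cannot be called high or low. At the same threshold, the ratio of observed to chromosome-rate peaks was 0.579 in the si-CHAF1A list and 0.636 in the si-Ctrl list. By covered bases it was 0.834 in the si-CHAF1A list. The ratio thus moved with the threshold and the unit, and with every peak it was within counting error of the chromosome rate. Whether the clusters hold more or fewer peaks than their chromosomes is therefore not settled here. Ending HOXB at HOXB9 was tried for peak counts and peak density only, and leaving out the readthrough gene for the count of genes with an end peak only. Both were added after the data were seen. Neither moved these results beyond their interval or by over 1.5 times, and the other results were not recounted. For the related lists, 5′ ends were counted only where at least 80% of members had a strand. No paired analysis was possible because each group has 1 list that does not keep its samples apart, and for the same reason no replicate could be left out.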
